A study of Mus musculus with 17 samples.

Results

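Solute carriers are membrane proteins that move nutrients, transmitters and organic ions across cell membranes. The 116 genes described here are the mouse protein-coding genes whose symbols place them in 8 carrier families: Slc1 (7 members), Slc2 (12), Slc6 (19), Slc7 (15), Slc16 (14), Slc22 (25), Slc38 (11) and Slco (13). They were taken by symbol alone from the 42687 genes of a count table. RNA was sequenced from microvessels of the cerebral cortex of mice 10 to 11 months old. Mice were either wild type (WT) or bore APP/PS1 transgenes, which model the amyloid deposits of Alzheimer's disease. All were given a peptide intraperitoneally, at 10 mg/kg every 2 days over 2 weeks. The peptide gp91-ds-tat inhibits NOX2, an NADPH oxidase that makes superoxide, and sgp91-ds-tat is its control. There were 5 libraries of WT with control peptide, 5 of WT with inhibitor, 2 of APP/PS1 with control peptide and 5 of APP/PS1 with inhibitor. The labels call the genotype APP and the peptides SC and NOX2, and do not name the promoter of the transgenes. Their protocol speaks of cortex taken on the operated side after a surgery that they do not describe, so every group may share it. They do not say whether each library is a separate animal, so p-values measure the spread between these libraries, which may in part be technical.

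The endothelium of brain capillaries is sealed by tight junctions, so water-soluble nutrients enter the brain through carriers. Glucose passes through a facilitative carrier of the Slc2 family, large neutral amino acids through Slc7 exchangers, lactate and ketone bodies through Slc16 carriers, and thyroxine and many organic anions through Slco carriers. Astrocytes, whose endfeet wrap the vessels, clear glutamate and GABA with Slc1 and Slc6 carriers driven by sodium. Slc22 carriers and several Slco carriers move organic cations and anions, drugs and metabolites among them, and Slc38 carriers move glutamine and other small neutral amino acids.

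The libraries held 7316503 to 17862965 counts, and carriers took 0.976 to 1.26% of them (median 1.08%). Levels are given in CPM (counts scaled to the library size by the TMM method), and 3 counts, taken as the floor, correspond to 0.174 to 0.390 CPM. Markers of endothelium, the labelled cell type, were present in every library, with a summed level over 8 genes of 1770 to 3361 CPM. Other cells were present too. The 8 neuron markers summed to 3029 to 4820 CPM, and the 8 fibroblast and leptomeningeal markers to 1110 to 3358 CPM. Markers of choroid plexus epithelium, which is not a tissue of the cortex, set libraries apart: their sum ran from 30.9 to 8311 CPM, and 10 libraries stood clear of the other 7. Each group had libraries on both sides of that gap. Summed microglial markers were 214 to 291 CPM in the 10 WT libraries and 263 to 493 CPM in the 7 APP/PS1 libraries. In bulk RNA of this kind, fewer cells of a type and less RNA per cell cannot be told apart.

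Of the 116 carriers, 83 had counts enough to be tested, and 81 of those had a count in every library. The families kept 6 of 7 (Slc1), 10 of 12 (Slc2), 12 of 19 (Slc6), 11 of 15 (Slc7), 13 of 14 (Slc16), 11 of 25 (Slc22), 10 of 11 (Slc38) and 10 of 13 (Slco) members. In WT with control peptide, 22 carriers had a mean above 100 CPM, 36 lay between 10 and 100, 23 between 1 and 10, and 35 at or under 1. The 33 carriers that were not tested never passed 0.893 CPM in any library, and 8 of them had no count at all, among them Slc2a7, Slc22a16, Slc22a20, Slc22a26 and Slc22a27. With no count, a level of up to 3 counts per library remains possible. Most of the Slc22 members that were not tested are known from kidney, liver or reproductive tract. The plasma-membrane carriers of noradrenaline (Slc6a2, at most 0.209 CPM), dopamine (Slc6a3, at most 0.561 CPM) and one of the glycine carriers (Slc6a5, at most 0.389 CPM) stood at or near the floor. Slc6a4, the serotonin carrier, was counted in every library, at 0.105 to 1.70 CPM.

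To order genes by level, counts were divided by exon length (RPKM, CPM per kilobase of exon). In WT with control peptide the glucose carrier Slc2a1 (GLUT1), known as the main glucose entry route of brain endothelium, had the highest mean, 227 ± 119 RPKM (SD, n = 5). The astrocyte glutamate carrier Slc1a2 (GLT-1) followed at 208 ± 6.72 RPKM. Next came the taurine carrier Slc6a6 (105 ± 25.8), Slc22a17 (94.8 ± 10.9), known as a receptor for lipocalin-2, and the organic anion carrier Slco1a4 (70.0 ± 13.2). Slc7a5 (LAT1), which exchanges large neutral amino acids, stood at 64.4 ± 15.2 RPKM and Slc6a17, a carrier of neutral amino acids on synaptic vesicles, at 58.0 ± 5.31. Slco1c1, a thyroxine carrier, followed at 54.4 ± 19.1 RPKM and the glutamate carrier Slc1a3 (GLAST), also within the first 10, at 35.8 ± 5.00. Among neighbours in the order of the first 10, only Slc1a2 and Slc6a6 had ranges that did not overlap, so the rest of the order is not resolved step by step. Slc2a1 and Slc1a2 shared the top by mean, and differed in spread: Slc1a2 ran from 198 to 216 RPKM over the 5 libraries and Slc2a1 from 143 to 430.

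As shares of all carrier counts, Slc1a2 alone took 21.8 to 30.1% (median 25.3%), Slc6a6 5.60 to 10.4% and Slc2a1 4.93 to 12.9% over the 17 libraries. The 10 most counted carriers together took 63.3 to 67.5%. Carriers known from brain endothelium (13 genes) took 27.2 to 36.3% of carrier counts, those known from astrocytes (5 genes) 25.5 to 35.5%, and those known from neurons (8 genes) 14.1 to 19.3%. Carriers known from microglia and macrophages (3 genes) took only 0.0758 to 0.158%, and those known from leptomeningeal and perivascular fibroblasts (3 genes) 0.500 to 1.22%. Carriers known from endothelium and from astrocytes thus took similar shares of counts. Counts also rise with gene length, and Slc1a2 has 13133 exon bases against 3506 for Slc2a1. These shares therefore do not compare levels per length.

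**Figure D1:**
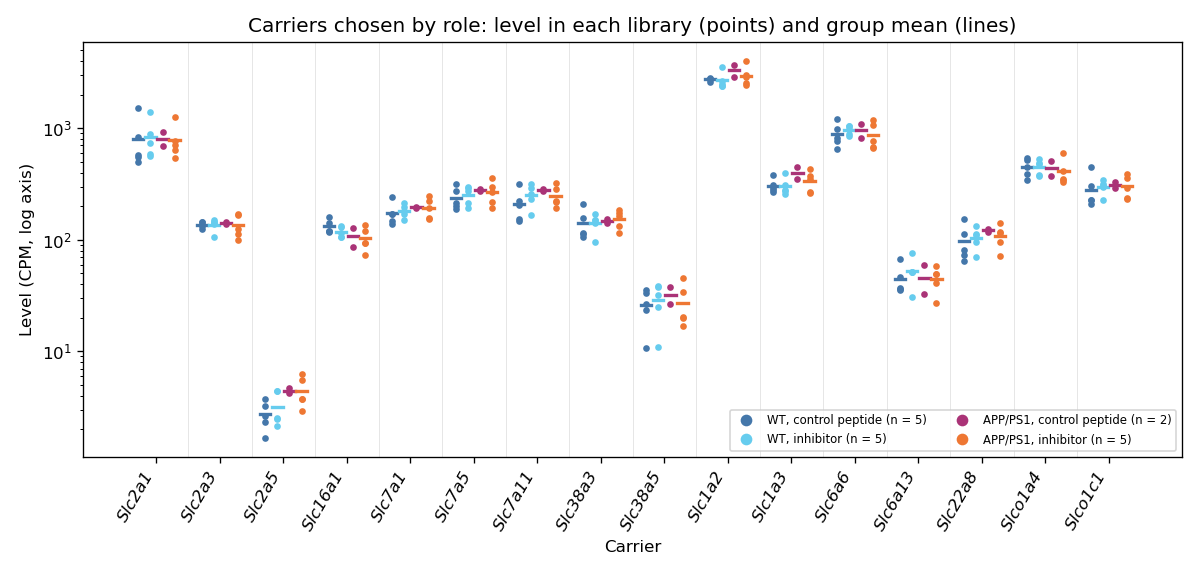
Level of 16 carriers chosen by role in each of the 17 libraries (points; CPM, log axis), with the mean of each group as a line. The 4 groups overlap for nearly every carrier. Slc2a1 and Slc38a5 spread widely within groups, and Slc2a5, at 1.67 to 6.23 CPM, sits below the rest.

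The genotype comparison asks which carriers differ between APP/PS1 and WT microvessels. Over both peptides, 0 of 83 carriers passed an adjusted p of 0.05 in edgeR's quasi-likelihood test, while 0.587% of all genes tested did (105 higher and 5 lower in APP/PS1). DESeq2's Wald test called 0 carriers too. At an unadjusted p under 0.05 there were 3 carriers, beside 6.38% of all genes: 2 were higher, beside 3.48%, and 1 lower, beside 2.9%. None of the 83 had genotypes that did not overlap, beside 0.272% of all genes. The median log2 change of the carriers was -0.0011, beside 0.0017 for all genes, with 41 carriers above 0 and 42 below. The median standard error of a carrier's log2 change was 0.136, and 74 of 83 estimates lay within 0.25 of 0. In simulated counts with changes planted in better-counted genes, this test recovered 63.6% of log2 changes of 0.5 in either direction. It recovered 97% of those of 1. Smaller changes of a carrier could thus have been missed.

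The carriers with the smallest p-values were a pair known from microglia and macrophages. Slc7a7, which with its partner Slc3a2 exports cationic amino acids, measured 4.51, 1.99, 3.96, 4.82 and 2.51 CPM in WT with control peptide and 2.80, 2.59, 4.31, 3.38 and 2.72 CPM in WT with inhibitor. In APP/PS1 it measured 4.25 and 5.16 CPM with control peptide, and 4.74, 5.31, 5.10, 2.81 and 6.56 CPM with inhibitor. Most APP/PS1 libraries lay above 4 CPM and most WT libraries below it, and the genotypes overlapped. The log2 change was 0.54 ± 0.19 (SE; edgeR adjusted p = 0.479), so it did not pass.

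Slc2a5, the fructose carrier of microglia, measured 3.24, 3.77, 2.64, 2.32 and 1.67 CPM in WT with control peptide and 4.39, 2.14, 2.51, 2.47 and 4.43 CPM in WT with inhibitor. The APP/PS1 libraries gave 4.25 and 4.66 CPM with control peptide and 2.91, 3.76, 5.54, 3.72 and 6.23 CPM with inhibitor. With control peptide the 2 APP/PS1 libraries were above all 5 WT libraries, and with inhibitor the groups overlapped. Its log2 change was 0.55 ± 0.20 (edgeR adjusted p = 0.536). Slc16a3 (MCT4), a lactate carrier of glycolytic cells and the last of these 3, gave 0.35 ± 0.18, so all 3 estimates were above 0 and none passed. Beside these values, 6 of the 8 microglia markers and 7 of the 8 markers of plaque-associated microglia were called higher in APP/PS1 by the same fit, Cx3cr1 at a log2 change of 0.78 ± 0.13 and Trem2 at 1.37 ± 0.13. The part of that difference in the values of Slc7a7 and Slc2a5 was not tested. An exon of Slc7a7 overlaps one of Oxa1l on the opposite strand, and without the strand setting of the counting its level is uncertain.

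Slc7a4, a member of the cationic amino acid carrier branch, went the other way. It had 45.2, 57.9, 51.4, 45.5 and 55.4 CPM in WT with control peptide, 55.8, 44.5, 51.9, 46.0 and 50.6 CPM in WT with inhibitor, 34.7 and 44.2 CPM in APP/PS1 with control peptide, and 33.4, 41.5, 41.5, 51.6 and 52.4 CPM in APP/PS1 with inhibitor. The APP/PS1 libraries lay below every WT library except for the pair at 51.6 and 52.4 CPM, which fell inside the WT range. The log2 change of -0.25 ± 0.097 did not pass (edgeR adjusted p = 0.602), and its exons overlap those of P2rx6 on the opposite strand.

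None of the 13 carriers known from brain endothelium passed. Their median log2 change by genotype was 0.06, with 8 above 0 and 5 below. Slc2a1 gave -0.05 ± 0.24, and the width of that error follows from its spread between libraries. Estimates with a narrower error were those of Slc7a5 at 0.13 ± 0.14, Slc7a1, the main entry carrier for arginine and lysine, at 0.12 ± 0.12, Slco1c1 at 0.06 ± 0.15, Slc6a6 at -0.05 ± 0.14, and Slco1a4 at -0.10 ± 0.13. The glutamine carrier Slc38a3 stood at 0.10 ± 0.14. The organic anion carrier Slc22a8 (OAT3) stood at 0.16 ± 0.17, and Slc38a5, another glutamine carrier, at 0.08 ± 0.26, with a wider error than Slc2a1. The monocarboxylate carrier Slc16a1 (MCT1), which brings lactate and ketone bodies across the endothelium, had the lowest value of the group at -0.23 ± 0.12: it averaged 132 ± 19.2 CPM in WT and 107 ± 30.3 CPM (n = 2) in APP/PS1 under the control peptide, and 118 ± 12.7 against 103 ± 24.7 CPM with inhibitor (SD, n = 5 where not given).

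Of the 5 carriers known from astrocytes, 4 lay above 0 by genotype (median 0.19), and none passed. Slc1a3 and Slc6a11, the glutamate and GABA carriers of astrocytes, both gave 0.23 ± 0.12. Slc1a2 measured 2734, 2733, 2596, 2836 and 2777 CPM in WT with control peptide against 3704 and 2886 CPM in APP/PS1, 2 groups that did not overlap. With inhibitor, WT measured 2481, 3503, 2366, 2389 and 2660 CPM and APP/PS1 2439, 2898, 2984, 2529 and 3984 CPM, and the groups overlapped, with or without the WT library at 3503 CPM. Of the astrocyte markers, Gfap was called higher in APP/PS1 (1.20 ± 0.15), and the sum of the 8 astrocyte markers was 659 to 832 CPM in WT and 662 to 1133 CPM in APP/PS1. Whether it has a part in the astrocyte carriers' values was not tested. The 8 neuronal carriers split 4 above and 4 below 0, with a median of 0.0026 and a largest log2 value of 0.07.

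**Figure D2:**
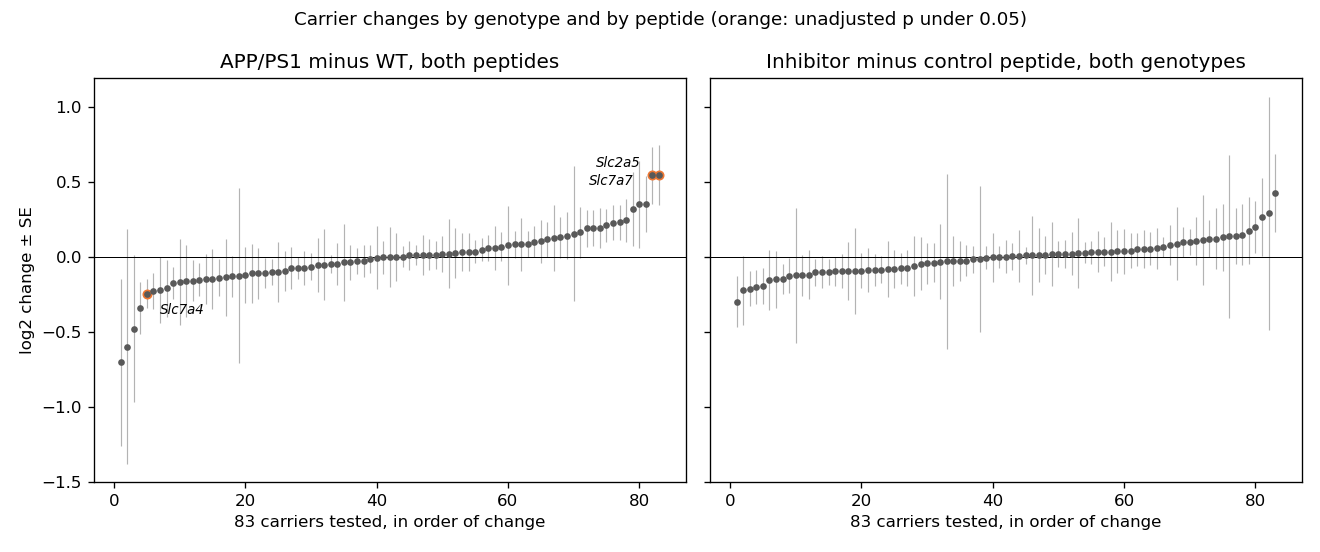
Log2 change of each of the 83 carriers tested, in order of size, with its standard error (vertical lines), by genotype over both peptides (left) and by inhibitor over both genotypes (right). Most carriers lie within 0.25 of 0 on both sides; orange marks the 3 carriers with an unadjusted p under 0.05, Slc7a7, Slc2a5 and Slc7a4, none of which passed the adjusted threshold.

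Proteins that carriers work with were looked at as a further list of 32 genes: heavy-chain and chaperone partners, enzymes that act on carried substrates, and regulators. Of the 32, 1 was called by genotype, beside the 0.587% over all genes. It was Hk2, a hexokinase, the enzyme class that phosphorylates glucose after Slc2 carriers bring it in. Its levels ran from 2.93 to 6.28 CPM in the 10 WT libraries (4.17 ± 1.03, SD) and from 4.42 to 10.1 CPM in the 7 APP/PS1 libraries (7.64 ± 2.26), so they overlapped in part. The log2 change was 0.87 ± 0.19 (edgeR adjusted p = 0.0304). When single libraries were left out, it no longer passed in 10 of 17 fits, and the highest adjusted p, 0.200, came without the second library of APP/PS1 with control peptide. Hk1, the other hexokinase of the list, gave 0.03 ± 0.089. Slc3a2, the heavy chain of Slc7a5, Slc7a7 and Slc7a11, gave -0.04 ± 0.11, and Bsg, the chaperone of Slc16a1 and Slc16a3, 0.04 ± 0.19. Among the thyroid hormone genes, the activating enzyme Dio2 stood at 0.61 ± 0.16 (edgeR adjusted p = 0.133) and the inactivating enzyme Dio3 at -0.64 ± 0.30 (adjusted p = 0.769). Neither passed.

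Split by peptide, the genotype comparison gave 0 carriers called each time, beside 0.0533% of all genes with control peptide (2 against 5 libraries) and 0.181% with inhibitor (5 against 5). Both sets of 0 held with DESeq2. With control peptide 1 carrier had an unadjusted p under 0.05, beside 3.97% of all genes. It was Slc7a4, at -0.37 ± 0.16 (edgeR adjusted p = 1.00). With inhibitor it was Slc7a7 alone, at 0.64 ± 0.25 (edgeR adjusted p = 1.00), beside 3.38% of all genes. With control peptide 7 carriers had groups that did not overlap, beside 7.53% of all genes: Slc1a2, Slc2a5, Slc6a9, Slc22a2 and Slco2b1 were higher in APP/PS1 (5 carriers, beside 3.6% of all genes), and Slc7a4 and Slc22a17 lower (2, beside 3.93%). With inhibitor the count was 0, beside 0.784% of all genes. Slc22a2 (OCT2), a carrier of organic cations, measured 1.79, 1.99, 1.73, 2.32 and 0.941 CPM in WT against 3.15 and 2.99 CPM in APP/PS1 with control peptide (0.80 ± 0.39, edgeR adjusted p = 1.00). With inhibitor WT averaged 2.20 ± 0.997 CPM and APP/PS1 2.18 ± 0.490 CPM (SD, n = 5). After Slc7a7, the smallest p-values with inhibitor were those of Slc2a5 (0.46 ± 0.26) and the orphan carrier Slc6a16 (0.57 ± 0.37), whose group means were under 1 CPM, both with an edgeR adjusted p of 1.00.

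The comparison of peptides asks what NOX2 inhibition changed. Over both genotypes 0 of 83 carriers passed in edgeR's test, as did 0% of all genes, and DESeq2 called 0 carriers. There were 0 carriers at an unadjusted p under 0.05, beside 2.11% of all genes. The carriers' median log2 change was 0.0022 beside 0.0038 for all genes. All 83 estimates lay within 0.5 of 0 and 79 within 0.25, with a median standard error of 0.137. Slc2a1 gave 0.02 ± 0.24, Slc16a1 -0.13 ± 0.12, and Slc7a11, the cystine and glutamate exchanger that feeds glutathione synthesis, 0.11 ± 0.16. The smallest p-values belonged to Slc6a11 at -0.21 ± 0.12, the little-characterised Slco5a1 at -0.30 ± 0.17 and Slco4c1, an organic anion carrier, at -0.20 ± 0.11, each with an edgeR adjusted p of 1.00. The 13 endothelial carriers had 9 estimates above 0 and 4 below (median 0.02), and the 5 astrocyte carriers 1 above and 4 below (median -0.10). All 8 neuronal carriers were below 0, with a median of -0.09, and none passed. Of the 18753 genes tested, 9645 were above 0 and 9108 below. Of the 8 neuron markers, 1 was above 0 and 7 below. Summed neuron markers, which share these libraries, were 3446 to 4768 CPM in WT with control peptide and 3029 to 4820 CPM with inhibitor, and 3778 to 4669 against 3104 to 4436 CPM in APP/PS1. Their part in the neuronal carriers' values was not tested.

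Within WT, 0 carriers were called, beside 0% of all genes, and 0 had an unadjusted p under 0.05, beside 1.34%. Slco5a1 (-0.38 ± 0.22), the cationic amino acid carrier Slc7a2 (0.23 ± 0.17) and the organic anion carrier Slc22a6 (0.38 ± 0.28) had the smallest p-values, each with an edgeR adjusted p of 1.00. No carrier's groups were free of overlap, beside 0.224% of all genes. Within APP/PS1 the count was again 0, beside 0% of all genes, with 0 carriers at an unadjusted p under 0.05, beside 1.8%. Slco4c1 measured 10.1 and 11.1 CPM with control peptide against 9.29, 5.90, 8.79, 7.89 and 9.34 CPM with inhibitor (-0.36 ± 0.19, edgeR adjusted p = 1.00). It and Slc22a2 were the 2 carriers whose groups did not overlap, beside 4.63% of all genes, and both were lower with inhibitor, beside 1.75% of all genes in that direction. Slc6a11 (-0.33 ± 0.19) and the aromatic amino acid carrier Slc16a10 (0.19 ± 0.14) followed, both with an edgeR adjusted p of 1.00. These comparisons share the control-peptide libraries with the genotype comparison, so a low or high value in 1 of the 2 APP/PS1 control libraries enters both.

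Whether the inhibitor acted differently in the genotypes was tested as an interaction. It called 0 carriers in edgeR and in DESeq2, beside 0% of all genes, and 0 carriers had an unadjusted p under 0.05, beside 0.843% of all genes. Slc22a2 (-0.79 ± 0.50), Slc7a2 (-0.40 ± 0.28) and Slc7a11 (-0.44 ± 0.33) came first, each with an edgeR adjusted p of 1.00. The median standard error of 0.291 was more than that of any other comparison, so a carrier would have to differ more in its inhibitor response to be seen here.

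Many carriers varied widely between libraries of the same group, and for some of them this went together with cell type markers. Each of the 83 carriers was compared with the mean log2 CPM of 11 marker lists over the 17 libraries, 913 pairs in all. Of these, 39 passed both an adjusted p of Pearson's r and one of Spearman's rho (permutation tests with 100000 resamples, two-sided, Benjamini-Hochberg over the 913), 34 of them positive. This is 4.27% of the carrier pairs. At the same limits of unadjusted p (0.0035 for r and 0.00169 for rho), 1.98% of 206203 pairs of any gene tested and a score passed, the genes of each list left out of its own pairs. These shares are a description, and genes are not independent of each other. The points share libraries, scaling and depth, and the lists vary together, for example pericyte and fibroblast scores at r = 0.902. When the 2 libraries farthest from the median of each score were left out, 13 pairs passed both, and with values centred on group means 64 did. The share over all genes was not computed in these alternatives.

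Of the endothelial pairs, 7 of 83 passed both (8.43%, beside 4.86% of all genes). Slc6a6 followed the endothelial score most closely (r = 0.95, rho = 0.95, permutation p = 1e-05 for each, the smallest the resamples can give, adjusted 0.000913 and 0.00101, r = 0.92 without the 2 farthest libraries). Its level was 653, 810.3, 992, 1210 and 768 CPM in WT with control peptide, and the first of these came from the library with the lowest endothelial score. Slco1c1 gave r = 0.91 and rho = 0.91 (adjusted permutation p 0.000913 and 0.00101), and 0.87 without the 2 farthest libraries. Slc38a10, Slc7a1, Slc38a5, Slc16a4 and Slc22a6 gave r between 0.74 and 0.84. Slc38a5 was as low as 10.8 CPM in 1 library of WT with control peptide and 10.9 CPM in 1 of WT with inhibitor, and up to 45.3 CPM in APP/PS1 with inhibitor. Slc2a1 had the highest mean level per length in WT with control peptide, in a range that overlapped that of Slc1a2. With the endothelial score Slc2a1 gave r = 0.09 and rho = 0.24 (permutation p = 0.745 and 0.354, adjusted 0.894 and 0.647). The library with the most Slc2a1, of WT with control peptide, had the lowest endothelial score, 7.29. The next, of WT with inhibitor, scored 7.52, and the highest score of all was 8.22. The weight of these libraries in the r of Slc2a1 was not tested.

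Of the fibroblast and leptomeningeal pairs, 6 passed both (7.23%, beside 3.24% of all genes). Slc7a11 (r = 0.91, rho = 0.95, adjusted permutation p 0.000913 and 0.00101) and Slc22a6 (OAT1; r = 0.91, rho = 0.94, the same adjusted p) led, and kept r at 0.97 and 0.91 without the 2 farthest libraries. Slc7a2, the GABA and taurine carrier Slc6a13, Slc38a11 and Slc16a12 gave r between 0.68 and 0.82. Slc7a11, Slc22a6, Slc7a2 and Slc38a11 went with pericyte and smooth muscle markers too, at r between 0.75 and 0.83, as did Slc22a8 (r = 0.82) and Slco2b1 (r = 0.72). These 6 are 7.23% of the carriers, beside 3.46% of all genes. Slc7a11 measured 222, 155, 205, 316 and 147 CPM in WT with control peptide and 231, 259, 313, 289 and 168 CPM in WT with inhibitor, 271 and 286 CPM in APP/PS1 with control peptide, and 223, 322, 217, 191 and 287 CPM in APP/PS1 with inhibitor. Its range in WT with control peptide covered nearly the whole range of the other groups.

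Slc7a11 is a textbook target of the amino acid stress response, whose factor Atf4 binds a short element in its promoter. The element was searched as TGATGNAA on both strands in the 250 bases before the annotated start (RefSeq, GRCm38.p6, chr3:50443614-50443863, minus strand). It matched at 2 places, in capitals, whose first bases lie 66 and 47 bases before the start, the second of them on the opposite strand. It is shown because the matches are 2 copies of 1 element on opposite strands.
Slc7a11: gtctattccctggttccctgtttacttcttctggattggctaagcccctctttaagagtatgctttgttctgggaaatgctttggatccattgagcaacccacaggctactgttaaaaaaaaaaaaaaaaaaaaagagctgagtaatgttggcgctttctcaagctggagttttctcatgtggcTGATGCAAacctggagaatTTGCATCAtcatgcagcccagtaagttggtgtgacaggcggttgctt
The same letters occur in 3.45% of 32851 RefSeq promoter windows of this length and in 4.42% of the 113 carrier windows, which belong to 88 of the 116 carriers. A match describes letters only. Atf4 itself had a genotype log2 change of 0.12 ± 0.082 and did not pass.

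Neuronal markers gave 9 pairs (10.8%, beside 4.43% of all genes). Slc6a17 (r = 0.85, rho = 0.87, adjusted permutation p 0.000913 and 0.00166), the neuronal glutamate carrier Slc1a1 (0.79), Slc7a14 (0.79), the amino acid exchanger Slc7a8 (0.77) and the inositol carrier Slc2a13 (0.68) rose with the score. Slc16a13 (r = -0.90, rho = -0.90, adjusted permutation p 0.000913 and 0.00101), Slc22a21 (-0.80), Slc16a11 (-0.75) and the carnitine carrier Slc22a5 (-0.74) went against it. Slc22a21 and Slc22a5 are relatives in the Slc22 family, and reads may be split between them, which was not tested. Astrocyte markers gave 5 pairs (6.02%, beside 1.32% of all genes): Slco2b1 (r = 0.83), Slc1a3 (0.79), Slc1a2 (0.76), Slc7a5 (0.75) and, negative, Slc38a6 (-0.77). Microglial markers gave 1, Slc7a7 (r = 0.70, rho = 0.76, adjusted permutation p 0.0317 and 0.0211). This is 1.2% of the carriers, beside 1.33% of all genes. Its r was 0.58 without the 2 farthest libraries and 0.54 with values centred on group means. None of the 83 carriers passed with oligodendrocyte, plaque-associated microglia, neutrophil or erythroid markers, beside 0.251, 0.838, 0.0907 and 0.187% of all genes.

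**Figure D3:**
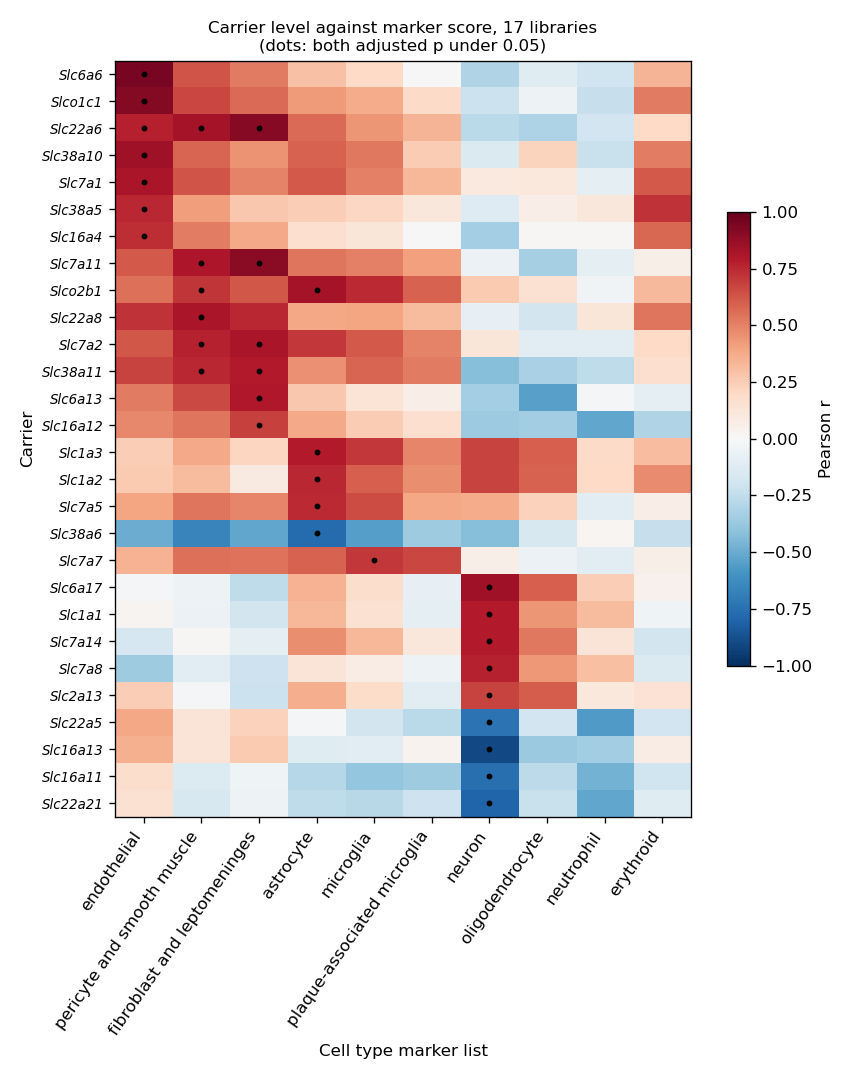
Pearson r (colour) of carrier level with the score of each marker list over 17 libraries, for the carriers with at least 1 pair past both adjusted thresholds (dots). Blocks of carriers go with endothelial, fibroblast, pericyte, astrocyte and neuron markers; the choroid plexus list is left out because its score splits the libraries into 2 sets.

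Choroid plexus markers split the libraries into 7 with scores from 0.885 to 3.74 and 10 with scores from 5.35 to 7.32 (mean log2 CPM), so r is given within each set, for each of the 83 carriers and with p-values adjusted over the 83. Within the 10 libraries with high scores 2 carriers passed both tests. The share over all genes was not computed within either set, so these counts are not compared with genes in general. Slc2a12 (GLUT12) gave r = 0.95 and rho = 0.90 (adjusted permutation p 0.00581 and 0.0315), and Slco1a5 gave r = 0.90 and rho = 0.95 (0.0216 and 0.00996). The lactate carrier Slc16a8 (MCT3) was next at r = 0.84 and rho = 0.84 and did not pass (adjusted permutation p 0.0672 and 0.105). Within the 7 with low scores 0 of 83 passed by an exact permutation test (smallest adjusted p 0.849 for r, 0.839 for rho). With 7 libraries and an adjustment over 83, only a very close relation could pass, so this 0 says little. There Slc2a12 gave r = 0.51 and Slco1a5 0.37. Over all 17 libraries the 5 pairs that passed were those of Slc2a12, Slc16a8, Slco1a5, Slc7a10 and Slc16a6 (6.02% of the carriers, beside 1.81% of all genes), but those values mix the 2 sets. Slc2a12 measured 6.71, 6.18, 41.8, 64.6 and 22.2 CPM in WT with control peptide, and the 2 low values came from libraries with low choroid scores. Over all libraries it ran from 6.18 to 64.6 CPM, Slc16a8 from 0 to 7.41 and Slco1a5 from 0.109 to 3.93. These 3 were among the 6 carriers with the largest biological coefficient of variation (1.18 for Slc16a8, 0.787 for Slco1a5, 0.646 for Slc2a12), with Slc6a4 (0.658), Slco1b2 (0.554) and Slc38a5 (0.368). Slco1a5 has relatives in Slco1a4 and Slco1a6, and a sharing of reads among them was not tested. Slc2a12, Slc7a10 and Slc16a6 overlap Tbpl1, Lrp3 and Amz2 on the opposite strand. The counts of Slco1a5, Slc2a12, Slc7a10 and Slc16a6 are thus uncertain.

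**Figure D4:**
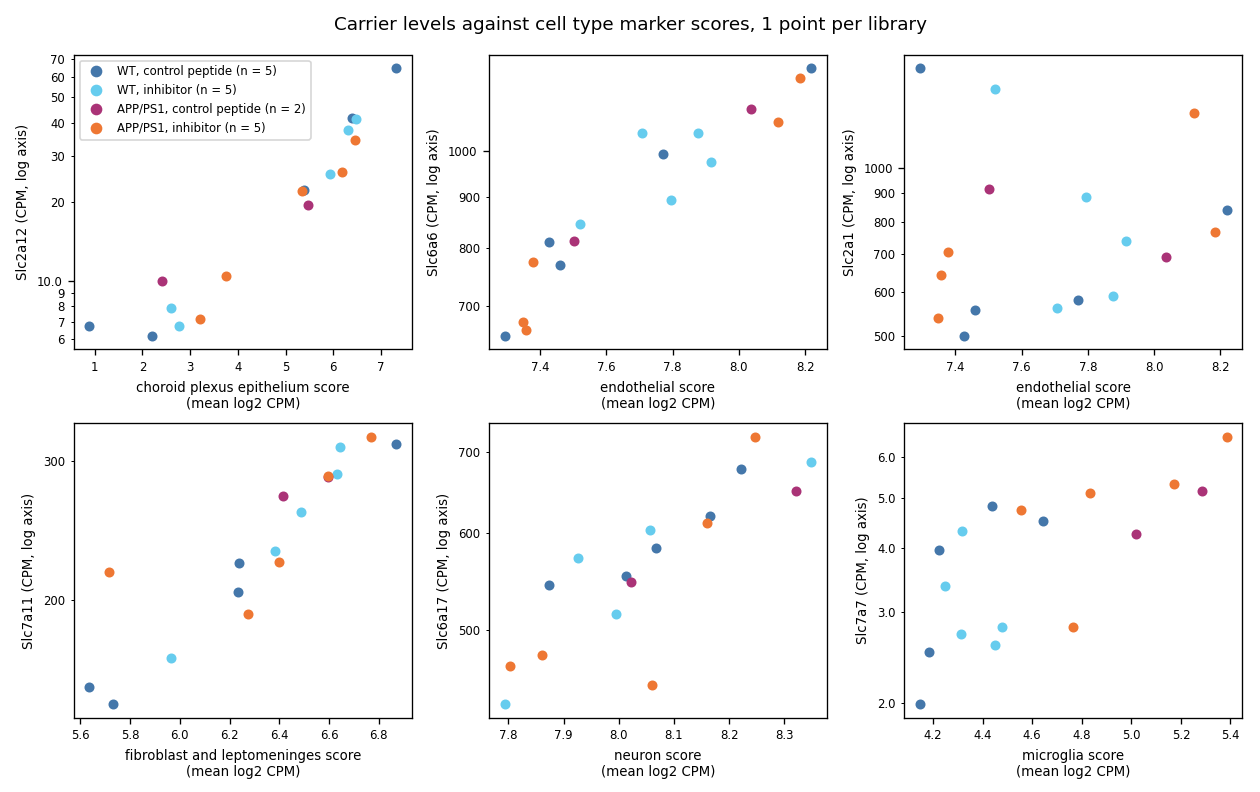
Level of 6 carriers (CPM, log axis) against the score of a marker list (mean log2 CPM), 1 point per library, coloured by group. Slc2a12 climbs from 6.18 to 64.6 CPM with the choroid plexus score, and Slc6a6, Slc7a11 and Slc6a17 climb with their scores. Across all libraries Slc2a1 shows no order with the endothelial score, and the library highest in Slc2a1 has the lowest such score. The APP/PS1 libraries hold the high end of the microglia score beside Slc7a7.

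Slc2a1 varied widely between libraries of the same group. It measured 1507, 500.5, 581, 841 and 557 CPM in WT with control peptide, 738, 885, 1385, 589.7 and 562 CPM in WT with inhibitor, 915 and 692 CPM in APP/PS1 with control peptide, and 643, 767, 705, 539.6 and 1255 CPM in APP/PS1 with inhibitor. The libraries at 1507, 1385 and 1255 CPM, of 3 different groups, stood above all others, which ran from 500.5 to 915 CPM. In the first 2 of them Slco1c1 was at 207 and 228 CPM, among its lowest values, and in the last at 360 CPM, among its highest.

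The carriers whose pattern over the 17 libraries was most like that of Slc2a1 were looked for after its values had been seen. Among 82 other carriers, compared within a search over 18752 genes, 4 passed both adjusted permutation tests. This is 4.88% of the carriers beside 4.61% of all genes compared, so likeness to Slc2a1 was about as frequent among carriers as among genes in general. Slc38a2 (SNAT2), a sodium-driven carrier of small neutral amino acids known to respond to osmotic and amino acid stress, gave r = 0.89 and rho = 0.85 (adjusted permutation p 0.00223 and 0.00411). Slc7a5 gave r = 0.83 and rho = 0.84 (adjusted permutation p 0.00223 and 0.00701), and the organic anion carrier Slco3a1 r = 0.75 and rho = 0.73 (0.0260 and 0.0275). Slc38a6 went against it, at r = -0.69 and rho = -0.82 (adjusted permutation p 0.0492 and 0.00849). Without the 2 libraries farthest from the median of Slc2a1, r was 0.85 for Slc38a2, 0.88 for Slc7a5, 0.78 for Slco3a1 and -0.93 for Slc38a6. Without the 3 libraries highest in Slc2a1, it was 0.78, 0.84, 0.65 and -0.88. In the library with 1507 CPM of Slc2a1, Slc38a2 was at 283 and Slc7a5 at 319 CPM, and in that with 500.5 CPM they were at 204 and 187 CPM.

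**Figure D5:**
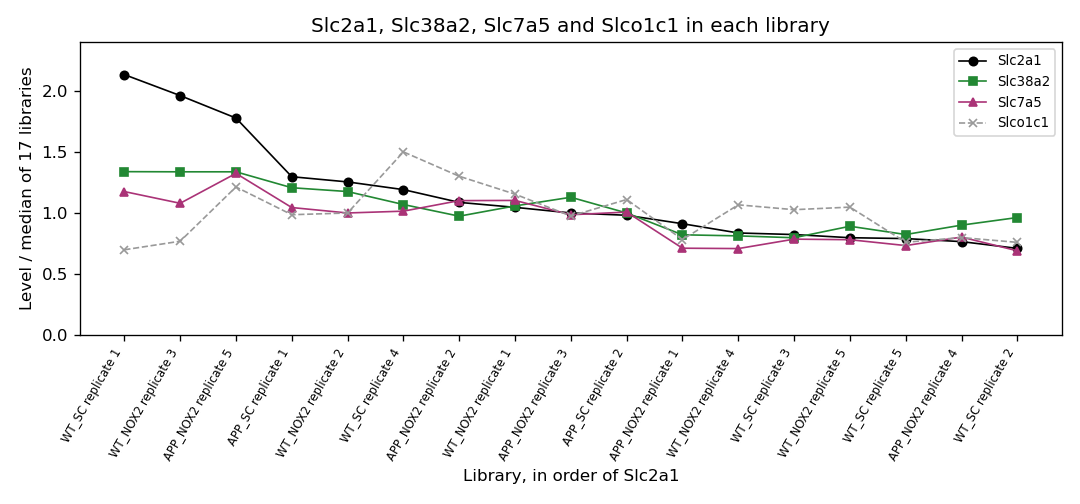
Level of Slc2a1, Slc38a2, Slc7a5 and Slco1c1 in each library, divided by the gene's median over the 17 libraries, with libraries in order of Slc2a1 from high (left) to low. Slc38a2 and Slc7a5 decline with Slc2a1 over a smaller range. Slco1c1, another endothelial carrier, gave r = 0.0013 with Slc2a1 over all 17 libraries. Its r was 0.60 without the 2 libraries farthest from the median of Slc2a1, and also without the 3 highest in Slc2a1.

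The promoters of Slc2a1 and Slc38a2 are shown because the pair varied together. Both windows are the 250 bases before the annotated start (RefSeq, GRCm38.p6), Slc2a1 at chr4:119108495-119108744 on the plus strand and Slc38a2 at chr15:96699729-96699978 on the minus strand. Capitals mark the GC box, searched as GGGCGG on both strands, which here lies on the opposite strand and so reads as its reverse complement.
Slc2a1: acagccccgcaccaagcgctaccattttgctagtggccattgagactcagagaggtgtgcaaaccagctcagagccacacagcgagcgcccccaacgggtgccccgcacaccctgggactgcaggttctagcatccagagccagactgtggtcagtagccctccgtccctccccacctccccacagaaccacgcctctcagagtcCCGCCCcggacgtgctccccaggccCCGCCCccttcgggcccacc
Slc38a2: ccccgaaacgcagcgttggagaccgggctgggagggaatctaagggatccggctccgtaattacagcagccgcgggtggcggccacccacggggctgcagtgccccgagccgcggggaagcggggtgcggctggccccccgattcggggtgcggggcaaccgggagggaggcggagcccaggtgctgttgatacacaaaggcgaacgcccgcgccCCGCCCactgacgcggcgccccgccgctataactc
Slc2a1 held 2 matches, with first bases 45 and 20 bases before the start, and Slc38a2 held 1, at 35 bases. A GC box occurs in 32.7% of all 32851 windows and in 37.2% of the 113 carrier windows and is thus a common sequence. The amino acid response element TGATGNAA, the antioxidant response element core TGACNNNGC (10.2% of all windows) and the OTX homeobox site TAATCC (6.25%) were searched in the same windows, and of these the antioxidant core was found in that of Slc38a2.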

How the data were processed

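Per the labels' protocols, microvessels were spun through dextran, ribosomal RNA was depleted and a stranded kit made the libraries. Raw counts per Ensembl gene were deposited by the authors. The submitters' processing notes name cutadapt, STAR, HTSeq and DESeq2, and the builds mm10 and GRCh37, with no versions or roles; the annotation and the strand setting of the counting are not given in the sources used here. A further 20 value columns matched no sample and were not used.

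Symbols and exon lengths came from GENCODE vM21 (42250 IDs matched, 437 did not; 1 of the 117 symbols that fit the carrier rule was not protein-coding). The members and gene lists were chosen with earlier results of these data known. Replicates were numbered in sample order and pair nothing. All 136 pairs of libraries differed, and the 31 pairs within groups by a chi-square per degree of freedom of 5.37 to 91.4. Each library was counted as 1 replicate, though such differences cannot show that each is a separate animal.

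Genes were filtered with filterByExpr (18753 kept), scaled by TMM and tested with the quasi-likelihood F test of edgeR 4.0.16 (R 4.3.3) on all 17 libraries. The model of group means gave the genotype difference with each peptide, the inhibitor difference in each genotype and the interaction; an additive model gave each factor over the other. P-values were adjusted over all genes (Benjamini-Hochberg, 0.05). Standard errors are the log2 change divided by the square root of F. Log2 levels for correlations used a prior count of 2. Alternatives were DESeq2 1.42.0 (size factors, Wald test), no filter, other sample sets, and leaving out each library. Floors cover counting error only. The scripts were tested on simulated counts.

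Named with values are the 3 carriers with the smallest p per comparison, the 10 with the highest level per length, the 6 with the largest variation, carriers chosen by role, carriers past the threshold, and up to 5 without counts; carriers that passed with a marker score, or whose groups did not overlap, were named after their values were seen. Some carriers that these rules would name are not reported here.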

Additional observations from a re-analysis of the deposited data

Results flagged for a closer look

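For the named carriers, each group of 5 libraries was searched for a library that stood apart from the others (Dixon's test), in 99 groups; 5 were found, where chance alone would give about 4.95. Slc1a2 was at 3503 CPM in 1 library of WT with inhibitor, against 2366 to 2660 CPM in the others. The neuronal glucose carrier Slc2a3 was at 106.7 CPM in another library of that group, against 137 to 149.5 CPM. Slc22a6 was at 62.8 CPM in 1 library of WT with control peptide, against 24.6 to 31.3 CPM. That library had the highest endothelial score of all 17, and also the highest fibroblast and leptomeningeal score and the highest choroid plexus score. In APP/PS1 with inhibitor, Slc6a4 was at 1.23 CPM in 1 library, against 0.181 to 0.443 CPM, and Slco1b2, a carrier known from liver, at 2.39 CPM in another, against 0.569 to 0.812 CPM.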

How the results depend on the processing

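In all 121 recalculations of a count, 85 of them without 1 library, 0 carriers were called, and the smallest adjusted p of any carrier was 0.236. All 361 recalculated log2 changes of the carriers with the smallest p kept their direction and stayed short of the threshold. The carriers' median log2 change moved beyond the spread between libraries (SD 0.106) in 1 setting, to 0.137 by genotype in the 7 libraries with low choroid plexus markers; the cause was not tested. That setting and one with the choroid score as a covariate, where the median was 0.00022, were added after the data were seen. The pairs of carrier and marker score past both thresholds went from 39 to 64 with values centred on group means. They went to 13 without the 2 farthest libraries, where fewer libraries entered. Neither alternative was run over all genes. Over all genes, DESeq2's Wald test, with its own size factors and without the filter on low counts, called 35 in place of 10 by genotype with control peptide, 61 in place of 34 with inhibitor and 176 in place of 110 over both, and edgeR without that filter called 13, 38 and 114; the cause was not tested. Leaving out single libraries gave 4 to 17, 15 to 38 and 70 to 125 genes, the lowest of the first and the last without the second library of APP/PS1 with control peptide. In the 7 libraries with low choroid markers 14 were called over both peptides. Hk2 kept a log2 change of 0.76 to 0.99 when single libraries were left out (adjusted p 0.00687 to 0.200) and 0.90 in the 7 libraries (0.650). The same 10 carriers led by level per length in every setting tried. No paired analysis was possible because the labels give no replicate numbers. With 2 libraries of APP/PS1 with control peptide, single differences in that group were measured with a median standard error of 0.232, and levels near 3 counts per library were beyond reach.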

Other observations

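The genes most like Slc2a1 over the 17 libraries were not carriers. Of 18752 genes compared after its values had been seen, 865 (4.61%) passed both adjusted permutation tests. The closest were Susd6 (r = 0.97, rho = 0.92), Nfkbia (r = 0.96, rho = 0.98), which encodes an inhibitor of NF-kappaB, Klf13 (r = 0.96, rho = 0.92), Serinc3 (r = 0.96, rho = 0.91) and Timp3 (r = 0.96, rho = 0.95), each with adjusted permutation p-values of 0.00223 and 0.00240. Without the 3 libraries highest in Slc2a1, r was still 0.90, 0.96, 0.91, 0.89 and 0.90. Selenop, which encodes a selenium carrier of plasma, and the volume-regulated channel subunit Lrrc8a were among the next, both at r = 0.95. No explanation was tested.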
